A study of Mus musculus with 28 samples.

Results

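Neuropeptide precursor genes, 7 in number, that act in feeding and arousal were followed by name through 28 RNA-seq libraries of the mouse brain: Pomc, Agrp, Npy, Cartpt, Hcrt, Pmch and Gal. They are 7 of the 29878 genes listed in the count tables, and each symbol was matched to 1 Ensembl gene. The libraries came from 2- to 3-month-old mice on a C57Bl/6 background that were wild-type (WT), heterozygous (het) or knockout (KO) for Hdc, the gene of histidine decarboxylase, which makes histamine. KO mice carry the disrupted gene in all tissues from conception, and no drug or diet treatment was named. Hypothalamus was sampled in 3 WT, 3 het and 2 KO libraries, ventral striatum in 3, 3 and 2, dorsal striatum in 2, 3 and 2, and motor cortex in 1, 2 and 2. Libraries are named below by genotype and by the number in their label, and since the labels do not tie a number to an animal, p-values measure only the spread between these libraries.

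Neuropeptides are cut from larger precursor proteins and released by neurons to act on receptors on other neurons. In the arcuate nucleus of the hypothalamus, neurons that make Pomc (the source of the satiety peptide alpha-MSH) and often Cartpt act against neurons that make Agrp and Npy, which drive food intake. In the lateral hypothalamus, separate neurons make Hcrt, the precursor of the orexins that keep an animal awake, and Pmch, the precursor of melanin-concentrating hormone. Gal, which encodes galanin, is made in several hypothalamic nuclei. Histamine neurons lie in the tuberomammillary nucleus close by and receive orexin input.

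The 7 genes lie on 7 chromosomes of GRCm38. Pomc lies at chr12:3954951-3960642, Npy at chr6:49822710-49829507, Cartpt at chr13:99898489-99901091 and Hcrt at chr11:100761069-100762931, all of them protein-coding. Gal lies at chr19:3409915-3414544 and Pmch at chr10:88091072-88092375, where it overlaps Parpbp on the other strand. Agrp, at chr8:105566698-105637393, has gene models in GENCODE M21 that run across Ctcf and Ripor1, so reads assigned to it are uncertain. The study named an Ensembl annotation instead, whose gene models were not compared here. The use of strand in counting was not given in the sources used here, so the counts of Agrp and Pmch may hold reads of these neighbours.

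The promoters of 3 genes are shown because their genes mark the ends of the regional pattern described below: Hcrt and Pmch were almost confined to hypothalamus, and Npy was lowest there. Each run is the 250 bases before the RefSeq start (GRCm38.p6), 5′ to 3′ on the gene's strand, with TATAAA, the core of the TATA box, in capitals.
Hcrt, chr11:100762932-100763181, minus strand: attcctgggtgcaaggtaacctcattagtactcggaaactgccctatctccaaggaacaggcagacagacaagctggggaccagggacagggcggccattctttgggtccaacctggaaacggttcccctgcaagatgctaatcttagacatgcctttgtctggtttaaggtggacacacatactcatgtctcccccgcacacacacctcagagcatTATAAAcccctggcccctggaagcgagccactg
Pmch, chr10:88090822-88091071, plus strand: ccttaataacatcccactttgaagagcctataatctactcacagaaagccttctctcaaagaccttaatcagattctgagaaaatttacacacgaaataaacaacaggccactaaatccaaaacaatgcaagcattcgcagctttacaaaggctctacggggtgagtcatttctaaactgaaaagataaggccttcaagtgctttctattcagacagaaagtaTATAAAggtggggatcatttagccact
Npy, chr6:49822460-49822709, plus strand: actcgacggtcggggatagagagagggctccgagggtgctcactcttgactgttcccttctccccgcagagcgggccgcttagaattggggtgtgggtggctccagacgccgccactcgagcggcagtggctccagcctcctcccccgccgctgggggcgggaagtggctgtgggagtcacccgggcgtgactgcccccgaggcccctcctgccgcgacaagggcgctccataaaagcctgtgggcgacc
RefSeq promoters were matched for 6 of the 7 genes. TATAAA, searched on both strands, was found 33 bases before the start in Hcrt, 27 in Pmch and 25 in Pomc (position of its first letter), and in 12.4% of the 32851 promoters searched. It was not found in these windows of Npy, Cartpt or Gal. TGACGTCA, the cAMP response element, was found in Cartpt alone, 112 bases before the start, and in 1.55% of all promoters. These matches describe the letters only.

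Counts assigned to genes came to 3536802 to 5150280 per library, and 3861785 to 4901109 in hypothalamus. Levels are given as CPM, the counts of a gene scaled to a fixed library total, after TMM scaling. Before TMM scaling, a count of 3 corresponds to 0.582 to 0.848 CPM, which is taken as the floor, and intervals on counts cover counting error only. After scaling, 3 counts came to 0.899 CPM in dorsal striatum WT 1 and 0.516 in hypothalamus WT 2, so the floor is approximate. The at-least ratios below use 3 counts per library after scaling. The check of the deleted gene was by whole-gene counts, which do not separate the removed exons. Hdc averaged 17.1 ± 1.91 CPM (SD, n = 3) in WT hypothalamus and 12.9 ± 1.76 (SD, n = 2) in KO hypothalamus. In the other 3 regions the order was the reverse. Means in dorsal striatum, ventral striatum and motor cortex were 8.66, 12.2 and 8.95 CPM in KO, 5.53, 5.35 and 5.11 in het and 0.45, 0.634 and 0 in WT libraries. The genotypes did not overlap there, with WT at most 1.61, het at 4.17 to 6.72 and KO at 7.83 to 12.9 CPM. Counts of Hdc thus separated the genotypes in these regions, but with the KO libraries highest, not lowest.

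The tissue label was checked with marker genes. All 8 hypothalamus markers (Nkx2-1, Sim1, Otp, Hmx2, Hmx3, Six6, Nr5a1 and Fezf1) were above 0 in every hypothalamus library, and their summed level ran from 45.0 to 109 CPM. Thalamus markers (Tcf7l2, Prkcd, Rora, Rorb and Ntng1) summed to 680 to 1393 CPM in the same libraries. Elsewhere the hypothalamus marker sum was at most 12.8 CPM. Tuberomammillary markers (Hdc, Slc18a2, Maob, Wif1 and Prph) summed to 89.0 to 139 CPM in hypothalamus and at most 42.2 elsewhere, in ventral striatum KO 8. The list holds Hdc, the disrupted gene, at a mean of 12.2 CPM in KO and 0.634 in WT ventral striatum, so its sums outside hypothalamus also vary with genotype. Lists of lateral hypothalamus and tanycyte markers did not set hypothalamus apart. Their medians were 78.8 and 72.5 CPM there, against 138 and 145 in ventral striatum. The library hypothalamus KO 8 stood apart, with cortex markers (Neurod6, Tbr1, Slc17a7 and Emx1) at 277 CPM against 20.3 to 55.7 in the other 7. In dorsal striatum, KO 7 stood apart in the same way, at 268 CPM, with WT 2 at 82.2 and the other 5 at 5.24 to 10.3. The second KO library of dorsal striatum, KO 8, held 6 choroid plexus markers (Kl, Folr1, Clic6, Sostdc1, Otx2 and Kcnj13) at a summed 156 CPM against 3.60 to 13.1 in the other 6. In ventral striatum, KO 8 had the lowest striatum marker sum (664 CPM against 846 to 1447) and the highest arcuate (63.2 against 7.49 to 45.4) and thalamus (312 against 170 to 243) marker sums. The arcuate list is not specific to arcuate tissue there. Its sums in hypothalamus, 28.4 to 48.7 CPM (median 33.5), lay below that of KO 8 but within the ventral striatum range (median 28.0). Bsx and Ghrh had at most 1 and 3 counts in ventral striatum. By genotype its ventral striatum sums ran from 7.49 to 22.9 in WT, 33.2 to 45.4 in het and 21.5 to 63.2 in KO libraries. Pituitary markers summed to at most 4.82 CPM in hypothalamus, with Gh and Pou1f1 at 0.

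Of the 7 genes, 6 were expressed mainly in hypothalamus, and Npy was the exception. Against dorsal striatum, ventral striatum and motor cortex, all 7 genes passed the test (edgeR likelihood ratio test, Benjamini-Hochberg adjusted over 14979 genes), with 6 higher in hypothalamus and Npy lower. Of all genes tested, 56.1%, 43.6% and 48.2% passed in these comparisons: 30.7%, 23.9% and 25.4% were higher in hypothalamus and 25.5%, 19.7% and 22.9% lower. A gene that passes the test is therefore common between regions, and the sizes of the differences carry the description. The test took genes above 1 CPM, before TMM scaling, in at least 2 of the 28 libraries. Hcrt, Pmch, Pomc and Agrp met this through hypothalamus alone, so their place among the genes higher there was in part set by the filter. In these bulk samples, a difference in the number of cells and a difference in RNA per cell cannot be told apart.

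**Figure D1:**
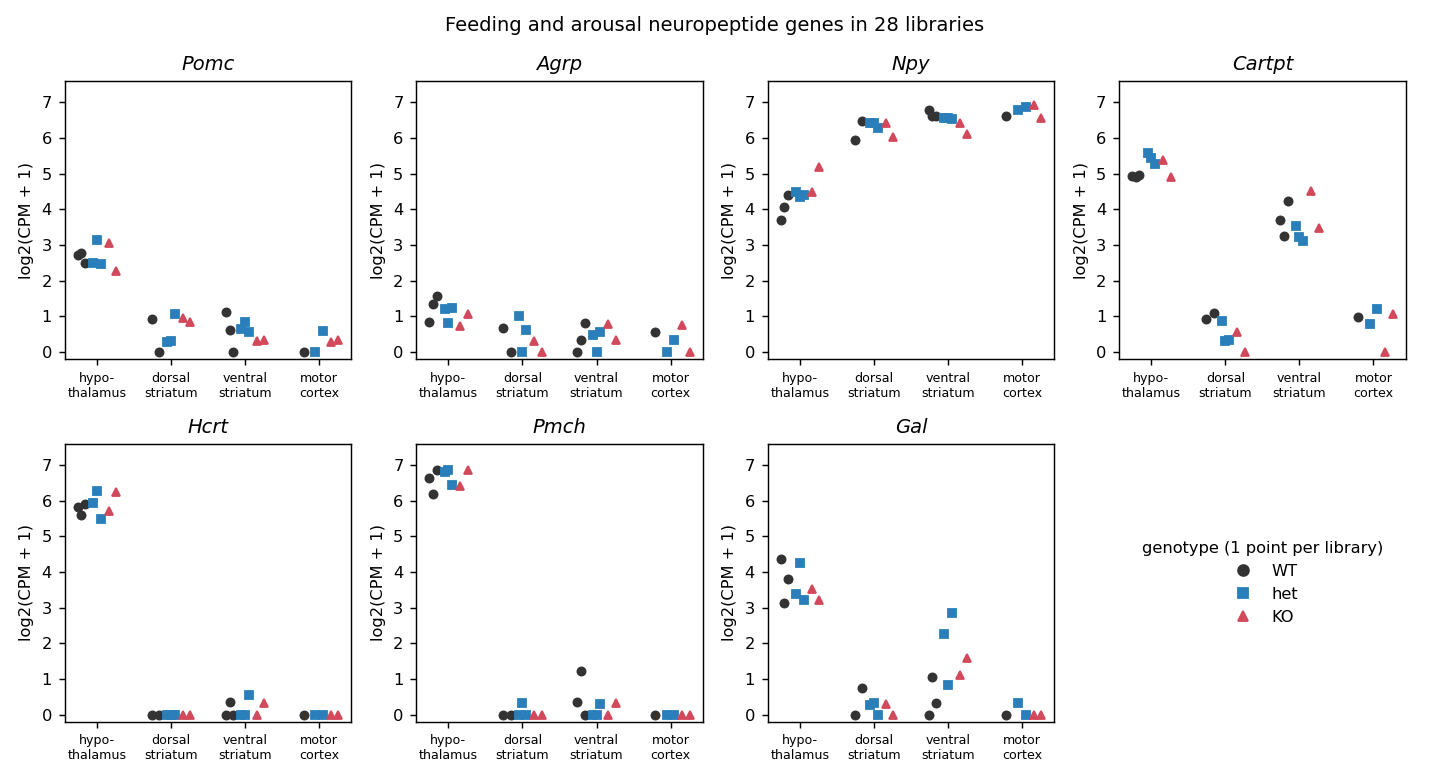
Each panel plots 1 neuropeptide gene, with log2(CPM + 1) on the y axis and the 4 brain regions on the x axis; each point is 1 of 28 libraries, marked by genotype. Hcrt and Pmch lie near 0 outside hypothalamus, and Npy lies higher in the other regions than in hypothalamus.

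The lateral hypothalamic pair was the most confined. Hcrt had 226 to 413 counts in each hypothalamus library (median 57.3 CPM, range 44.0 to 76.8). It had no count in the 7 dorsal striatum and 5 motor cortex libraries, and 4 counts over the 8 ventral striatum libraries. Hypothalamus was thus at least 78.9-fold higher than dorsal striatum and at least 79.5-fold higher than motor cortex, against a floor of 3 counts per library. Against ventral striatum the pooled ratio was 477 (95% exact interval 186 to 1752), over a pooled 0.123 CPM that lay below the floor.

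Pmch was the most abundant of the 7 in hypothalamus, with 391 to 643 counts (median 104 CPM, range 72.4 to 115). Motor cortex libraries had no Pmch count, which puts hypothalamus at least 135-fold higher. A single count was seen over the dorsal striatum libraries, a pooled 0.035 CPM that lay below the floor. The ratio to that level was 2842, with a 95% exact interval of 510 to 112288. In ventral striatum, 8 counts were seen, of which 5 fell in WT 2. The pooled ratio was 405 (205 to 938), over 0.246 CPM, also below the floor. Ratios over levels below the floor cannot be compared with the at-least values, which use the floor.

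Cartpt, whose peptide CART curbs feeding and is also made in the nucleus accumbens, had a second site of expression. It ranged from 29.2 to 47.0 CPM in hypothalamus (median 33.9), from 7.65 to 22.0 in ventral striatum (median 10.4) and from 0 to 1.13 in dorsal striatum. The 3 ranges did not overlap. Ventral striatum exceeded dorsal striatum by 4.55 on the log2 scale (SE 0.45, adjusted p = 2.96e-53, edgeR), a pooled ratio of 21.7 (95% exact interval 13.2 to 38.4). The pooled dorsal striatum level, 0.56 CPM, lay below the floor. The fitted difference was 5.64 without KO 7 of dorsal striatum, which leaves the KO group there with no count so that the value depends on the prior count, and 4.27 without KO 8. Motor cortex was low, at 0 to 1.29 CPM.

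Over all libraries, Gal followed the same order at a lower level. Its CPM ran from 7.74 to 19.5 in hypothalamus (median 9.92), from 0 to 6.22 in ventral striatum (median 1.13) and up to 0.68 in dorsal striatum. In ventral striatum, het 6 (26 counts) and het 4 (20 counts) held most of its 67 counts. The WT means of ventral and dorsal striatum, 0.444 and 0.34 CPM, were both below the floor, so WT libraries did not resolve this order. The means were 3.60 and 0.15 CPM in het and 1.60 and 0.115 CPM in KO libraries. Ventral striatum passed the test against dorsal striatum (log2 difference 2.65, SE 0.75, adjusted p = 8.86e-05, edgeR), but not when WT 2 of ventral striatum was left out (2.14, adjusted p = 0.0618). The fitted value was 3.94 without WT 2 and 3.46 without KO 7 of dorsal striatum, each of which leaves its group there with no count, so both depend on the prior count. Cartpt and Gal were the 2 of 7 genes that passed in this comparison, both higher in ventral striatum, against 29.0% of all genes in either direction and 14.4% in that direction.

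The arcuate genes Pomc and Agrp were scarce. Pomc had 18 to 42 counts per hypothalamus library (3.87 to 7.81 CPM, median 5.13) and 0 to 4 counts in any library elsewhere. The pooled ratio was 9.88 over dorsal striatum (95% exact interval 5.96 to 17.6), 11.3 over ventral striatum (6.78 to 20.0) and 28.2 over motor cortex (10.9 to 104). The pooled levels outside hypothalamus, 0.196 to 0.56 CPM, lay below the floor. Agrp, whose peptide blocks melanocortin receptors, had only 3 to 11 counts in hypothalamus (0.65 to 1.97 CPM) and 0 to 5 elsewhere. Its pooled ratio was 3.42 over dorsal striatum (1.72 to 7.57), where the pooled 0.35 CPM also lay below the floor. Its residual counts outside hypothalamus share the uncertainty over its gene models, and its call against motor cortex was lost with DESeq2 (adjusted p = 0.0534).

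Npy, which in cortex and striatum is made by scattered interneurons, had the opposite order. Its median level was 20.2 CPM in hypothalamus (highest 35.7), 85.3 in dorsal striatum (61.1 to 88.6), 93.6 in ventral striatum (67.7 to 110) and 110 in motor cortex (93.7 to 122). The hypothalamus range lay below the other 3, which overlapped with their neighbours in that order. On the log2 scale hypothalamus differed by -1.88 (SE 0.11) from dorsal striatum, by -2.10 (SE 0.11) from ventral striatum and by -2.33 (SE 0.12) from motor cortex. Motor cortex also passed against dorsal striatum (0.45, SE 0.12, adjusted p = 0.000441, edgeR), the only one of the 7 to do so beside 43.4% of all genes (22.0% higher in motor cortex). Ventral against dorsal striatum (0.21, SE 0.10, adjusted p = 0.111) and motor cortex against ventral striatum (0.24, SE 0.11, adjusted p = 0.0758) did not pass. In the last comparison Cartpt and Gal were lower in motor cortex, 2 of 7 beside 43.7% of all genes (22.2% lower in motor cortex).

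Per kilobase of exon, which allows genes to be compared, the order in hypothalamus was Pmch (mean 133 CPM per kb), Hcrt (78.5), Npy (36.6), Cartpt (28.0), Gal (15.1), Pomc (4.20) and Agrp (1.16). Pmch exceeded Hcrt, and Hcrt exceeded Npy, in 8 of 8 libraries although the ranges of these neighbours overlapped. Npy exceeded Cartpt, and Cartpt exceeded Gal, in 7 of 8. Gal, Pomc and Agrp had ranges that did not overlap. Pmch and Hcrt together made up 67.2% to 74.2% of the summed level of the 7 genes. In the other 3 regions Npy came first in every library.

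Genotype was compared next, to ask whether loss of the histamine enzyme moved these peptides. In hypothalamus, KO libraries differed from WT libraries in 1 of the 7 genes, Npy, which was higher, beside 0.167% of all genes tested in either direction and 0.147% higher. The other 6 did not pass.

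**Figure D2:**
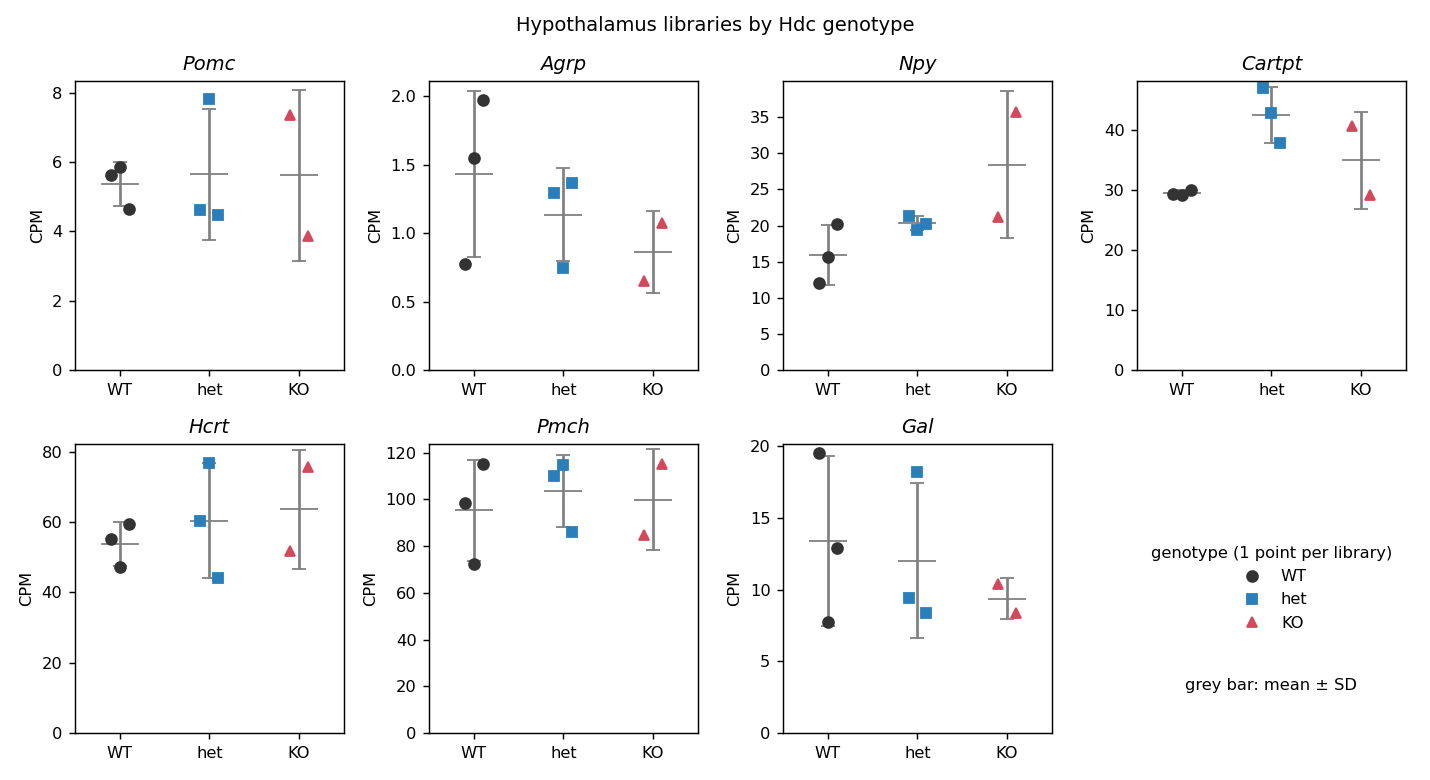
Each panel plots 1 gene in the 8 hypothalamus libraries, with CPM on the y axis from 0 and genotype on the x axis; points are libraries and grey bars are the mean ± SD. The KO libraries of Npy (21.2 and 35.7 CPM) lie above the WT libraries (at most 20.2), and those of the other 6 genes overlap the WT range.

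Npy had 62, 91 and 113 counts in WT 1, 2 and 3, which is 11.998, 15.7 and 20.2 CPM. It was at 21.3, 19.3 and 20.3 CPM in het 4, 5 and 6, and at 21.2 and 35.7 in KO 7 and KO 8. Both KO libraries lay above all WT libraries, KO 7 by a narrow margin, and KO 8 lay far above the rest. The KO minus WT difference was 0.83 on the log2 scale (SE 0.21, adjusted p = 0.0393, edgeR). An exact permutation test of the 2 KO against 3 WT libraries gave p = 0.2 (two-sided), the smallest p this design allows. The call was lost with edgeR's quasi-likelihood test (adjusted p = 0.396) and with DESeq2 (0.0991).

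Npy and cortex markers were both high in KO 8. Over the 8 libraries Npy against the cortex marker sum gave r = 0.74 (exact permutation p = 0.0746, adjusted p = 0.334 over the 21 relations with marker lists) and rho = 0.43 (exact p = 0.299), and r was -0.12 without the 2 libraries farthest in the marker sum, so the relation rested on those libraries. That library held 198 CPM of Slc17a7, the vesicular glutamate transporter of cortical neurons, against 10.2 to 44.8 in the other 7, and 62.1 CPM of Tbr1, a transcription factor of cortical projection neurons, against 4.81 to 11.4. Motor cortex held Npy at 93.7 to 122 CPM. Without KO 8 the difference was 0.41. With the summed cortex marker level as a covariate, an alternative chosen after seeing the data, it was 0.51 (adjusted p = 1.00, edgeR). KO 8 stood at 277 CPM on that covariate, against 20.3 to 55.7 in the other 7, so this fit is not separate from leaving KO 8 out. KO 7, with cortex markers at 27.1 CPM and so within the range of the other libraries, held 21.2 CPM of Npy. The call was also lost without WT 1 (0.67, adjusted p = 0.424) and without WT 2 (0.81, adjusted p = 0.166).

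**Figure D3:**
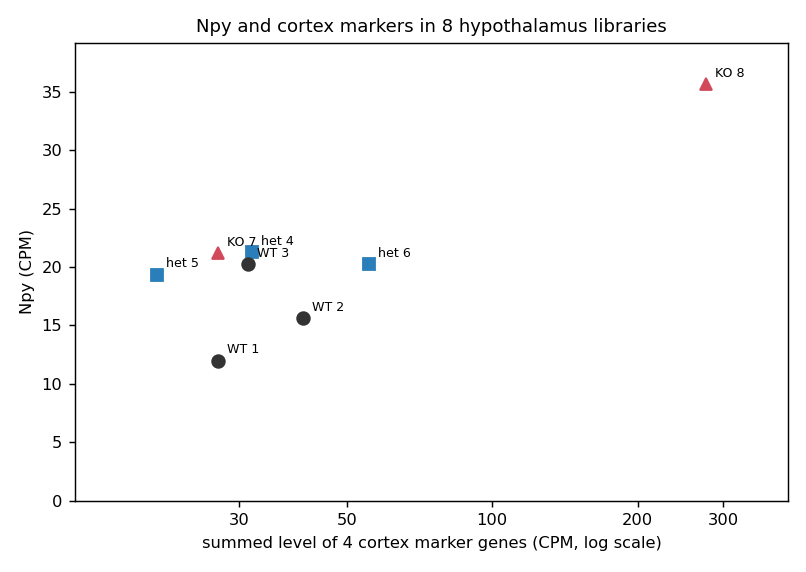
Npy (CPM, y axis from 0) is plotted against the summed level of the 4 cortex marker genes (CPM, x axis on a log scale) in the 8 hypothalamus libraries, labelled by genotype and number. KO 8, at 277 CPM of cortex markers and 35.7 CPM of Npy, lies apart from the other 7 libraries, which hold 20.3 to 55.7 CPM of cortex markers.

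Cartpt was at 29.4, 29.2 and 30.1 CPM in WT 1, 2 and 3, at 47.0, 42.8 and 37.8 in het 4, 5 and 6, and at 40.7 and 29.2 in KO 7 and 8. All het libraries lay above all WT libraries, and the KO libraries spanned both. The het minus WT difference of 0.52 (SE 0.21) had an unadjusted p of 0.0143 and did not pass (adjusted p = 0.765, edgeR). The KO minus WT difference was 0.24 (SE 0.24, adjusted p = 0.999).

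Hcrt and Pmch did not separate by genotype. Hcrt was at 55.2, 47.1 and 59.4 CPM in WT, 60.4, 76.8 and 44.0 in het, and 51.8 and 75.6 in KO libraries, in the order of their numbers. Pmch was at 98.5, 72.4 and 115 CPM in WT, 110, 115 and 86.1 in het, and 84.7 and 115 in KO libraries. The KO minus WT difference was 0.24 (SE 0.23, adjusted p = 0.998) for Hcrt and 0.07 (SE 0.20, adjusted p = 0.999, edgeR) for Pmch. All 3 genotypes overlapped for both genes.

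Gal was highest in WT 1 (19.5 CPM) and het 5 (18.2), and the other 6 libraries held 7.74 to 12.9. The KO minus WT difference was -0.51 (SE 0.48, adjusted p = 0.998, edgeR). Pomc was at 5.61, 5.85 and 4.66 CPM in WT, 4.63, 7.81 and 4.48 in het, and 7.36 and 3.87 in KO libraries, and the KO minus WT difference was 0.06 (SE 0.37, adjusted p = 0.999). Agrp, at 3 to 11 counts, gave -0.72 (SE 0.67, adjusted p = 0.995), which these counts do not resolve.

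No gene of the 7 passed between het and WT (edgeR; 0.0935% of all genes passed) or between KO and het (0.234%). In each, 1 gene had an unadjusted edgeR p under 0.05, Cartpt for het against WT (beside 5.62% of all genes) and Npy for KO against het (beside 5.55%). The Npy difference was 0.49 (SE 0.20, adjusted p = 0.761, edgeR). The quasi-likelihood test and DESeq2 also called 0 in both.

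Outside hypothalamus, none of the 7 genes passed between KO and WT by edgeR, by the quasi-likelihood test or by DESeq2. Several could not pass: KO and WT libraries had no count of Hcrt or Pmch in dorsal striatum and motor cortex, or of Gal in motor cortex. Pomc and Agrp had at most 4 and 3 counts in any of these libraries, so counts of members that passed say little about them. Of all genes, 0.387% passed in dorsal striatum, 0.0801% in ventral striatum and 0.0334% in motor cortex. Motor cortex WT was 1 library, assumed to vary like the other groups, so its comparison has no replicate check of its own. At an unadjusted p under 0.05 there was 1 gene in dorsal striatum (Cartpt, with at most 5 counts), 2 in ventral striatum (Npy and Gal) and 0 in motor cortex, beside 7.94%, 5.40% and 4.33% of all genes. Gal in ventral striatum had 0, 4 and 1 counts in WT and 5 and 8 in KO libraries, a difference of 1.76 (SE 0.88, adjusted p = 0.876, edgeR) that ran from 1.24 to 3.31 on leaving out each library. Npy in ventral striatum was at 110, 96.9 and 97.7 CPM in WT and at 85.3 and 67.7 in KO libraries, a difference of -0.41 (SE 0.18, adjusted p = 0.841). The lowest of these was KO 8, whose marker sums stood apart, and without it the difference was -0.25 (adjusted p = 0.964). In dorsal striatum it was at 61.1 and 88.6 CPM in WT and 85.3 and 63.9 in KO libraries, which overlapped (-0.01, SE 0.20, adjusted p = 0.997; -0.23 with an adjusted p of 0.817 without KO 7, and 0.18 with an adjusted p of 1.00 without KO 8).

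The peptides were set against each other over the 8 hypothalamus libraries, in 21 pairs. Over all 3 genotypes the largest Pearson's r was that of Hcrt and Pmch, 0.84 (exact permutation p = 0.0102, adjusted p = 0.215 over 21 pairs) and Spearman's rho = 0.76 (exact p = 0.0368). Without the 2 libraries farthest from the median of Hcrt, r was 0.85. The ratio of Pmch to Hcrt CPM ran from 1.49 to 1.96. No pair passed after adjustment. The next largest r was -0.62, for Pomc and Agrp, and it fell to -0.07 without the 2 farthest libraries. With the genotype means removed, given as a description, Hcrt and Pmch had r = 0.85, and Agrp and Npy, at 0.09 before, had r = 0.84 (0.91 without the 2 farthest). Agrp and Gal were then at -0.77 (-0.24 without the 2 farthest) and Pomc and Agrp at -0.71 (-0.56). Agrp rests on 3 to 11 counts per library. Its SD between libraries, 38.7% of the mean, did not exceed the counting error of 40.0%.

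**Figure D4:**
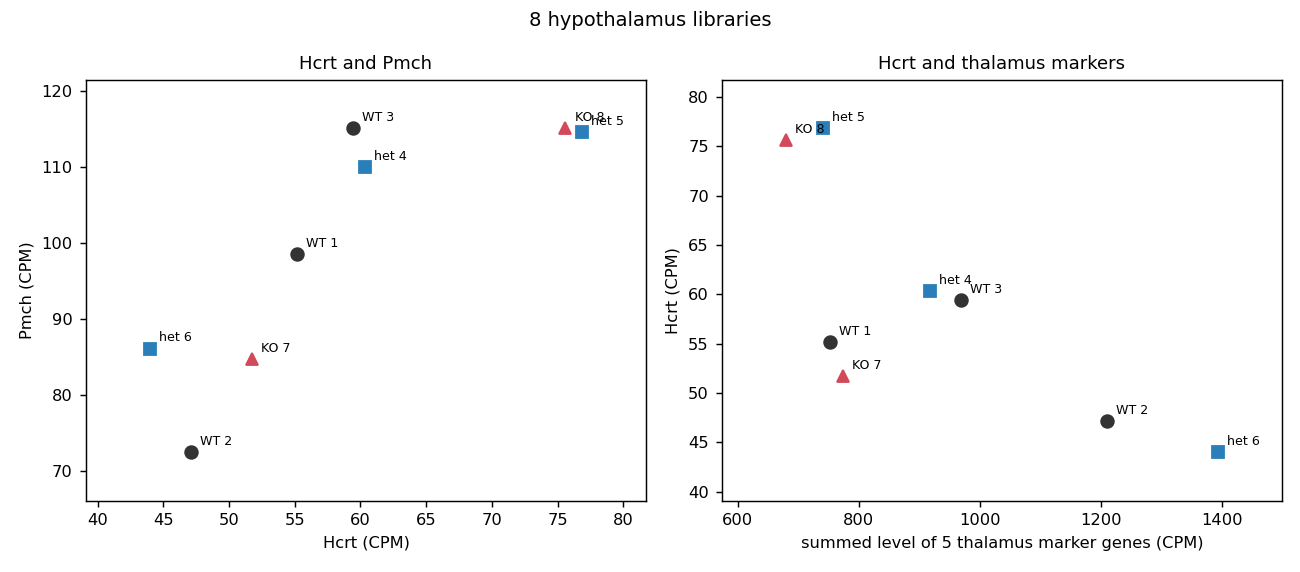
Left, Pmch (CPM) is plotted against Hcrt (CPM); right, Hcrt (CPM) is plotted against the summed level of the 5 thalamus marker genes (CPM). Each point is 1 of the 8 hypothalamus libraries, labelled by genotype and number, and the axes do not start at 0. Pmch is higher where Hcrt is higher (r = 0.84), and Hcrt is lowest in the 2 libraries with the highest thalamus markers.

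The levels of the 7 genes were also set against the summed thalamus, hypothalamus and cortex markers. Hcrt against the thalamus marker sum gave r = -0.78 (exact permutation p = 0.024, adjusted p = 0.191 over 21 relations of 7 genes with 3 marker lists) and rho = -0.79 (exact p = 0.0279), and r was -0.43 without the 2 farthest libraries. The lowest Hcrt levels, in het 6 and WT 2, came with the highest thalamus marker sums, 1393 and 1210 CPM. Pomc against the hypothalamus marker sum gave r = 0.76 (exact p = 0.0273, adjusted p = 0.191), rho = 0.71 (exact p = 0.0576) and r = 0.63 without the 2 farthest. Pomc against the cortex marker sum gave r = -0.71 (exact p = 0.0245, adjusted p = 0.191), rho = -0.86 (exact p = 0.0107) and r = -0.62 without the 2 farthest. Gal against the cortex marker sum gave r = -0.57 (exact p = 0.119, adjusted p = 0.381), rho = -0.79 (exact p = 0.0279) and r = -0.79 without the 2 farthest. None passed after adjustment, and the part of dissection in the differences between libraries was not tested further.

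Among 10055 other genes with a mean of at least 5 CPM in hypothalamus, the 3 most like each peptide were listed by Pearson's r over the 8 libraries. Those of Hcrt were Scn2a (0.972), Syne1 (0.965) and Kbtbd11 (0.964), and those of Pmch were Zbtb39 (0.972), D3Ertd254e (0.950) and Naa30 (0.946). Npy was most like Chrm3 (0.978), Fam234b (0.961) and Dhrs7 (0.953), and Pomc most like Zfp770 (0.988), Cbln1 (0.984) and Ucp2 (0.948). Cartpt was most like Dtna (0.964), Ttll4 (0.962) and Nek4 (0.948), Gal like Naa80 (0.991), Ccpg1 (0.979) and Ednrb (0.951), and Agrp like Actr2 (0.969), Pum2 (0.955) and Gnpat (0.947). With 8 points and this many genes, such values describe these libraries only.

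The genes around the peptides were listed by role. In KO against WT in hypothalamus 0.167% of all genes passed and 6.01% had an unadjusted p under 0.05, so 0 calls in a short list is near the background. Of the receptors, 0 of 11 tested passed by edgeR, and 0 had an unadjusted p under 0.05. Their median log2 difference was 0.06, beside 0.014 over all genes. Npy5r, a receptor of NPY, had the lowest value (-0.85, SE 0.47, adjusted p = 0.851) and Hcrtr2, the second orexin receptor, the highest (0.80, SE 0.45, adjusted p = 0.865).

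Of the 6 peptide processing genes, 0 passed and 1 had an unadjusted p under 0.05, Pcsk1 (0.38, SE 0.17, adjusted p = 0.724), a convertase that cuts Pomc and other precursors. Their median was 0.02. Of 9 regulators of arcuate and orexin neurons, 0 passed and 1 had an unadjusted p under 0.05, Lhx9 (-0.87, SE 0.38, adjusted p = 0.691), a homeobox factor of developing orexin neurons, with a median of -0.08.

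Of 18 other hypothalamic peptides tested, 0 passed between KO and WT, with a median of -0.02, and Nts, which encodes neurotensin, had an unadjusted p of 0.000257 (-1.09, SE 0.30, adjusted p = 0.113, edgeR). The 2 calls among these lists over the 3 genotype comparisons were both Vip, a peptide of the suprachiasmatic nucleus, beside 0.0935% of all genes for het against WT and 0.234% for KO against het. Vip was at 4.45, 0.516 and 4.30 CPM in WT, 0.37, 0.93 and 0.389 in het, and 4.76 and 2.79 in KO libraries. The het libraries and WT 2 were low, so the het and WT groups overlapped. In het against WT it fell by 2.38 on the log2 scale (SE 0.63, adjusted p = 0.0330) and differed between KO and het by 2.68 (SE 0.66, adjusted p = 0.00889), and the quasi-likelihood test called neither.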

How the data were processed

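RNA from dissected mouse brain regions was amplified with the Ovation V2 kit and sequenced. Per the submitters' processing notes and the study's methods, the authors trimmed reads (Trimmomatic 0.32), removed rRNA reads (Bowtie2 2.2.3) and aligned to GRCm38 (STAR 2.3.1z8, SAMtools 0.1.19). They deposited raw counts per gene of reads mapping uniquely to exons (HTSeq 0.6.1p1, default union mode). Amplification from little RNA can widen the spread of scarce transcripts.

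Rows naming no gene held 45.78% to 55.22% of tallied reads per library and were left out. Symbols, overlaps and exon lengths came from GENCODE M21, not from the Ensembl annotation that the study named, so levels per kilobase rest on M21 lengths. The 14979 genes above 1 CPM in at least 2 libraries were fitted in edgeR 4.0.16 (glmFit, glmLRT, TMM) with 12 region-by-genotype means over 28 libraries, after the study's methods. Adjusted p under 0.05 was called. All 7 genes were tested. Log2 CPM used a prior count of 2. Alternatives were the quasi-likelihood test, DESeq2 1.42.0, other scalings, no filter, single regions and leaving out each library. Correlations and permutation tests were exact (scipy 1.17.1). The fitting code was tested on simulated data. The 21 same-group library pairs differed beyond sampling noise (chi-square per degree of freedom 1.78 to 13.3). The named genes are the 7, the genes of the lists that passed, stood at a list's end or had the lowest p, chosen after their values were seen, and the 3 genes most like each of the 7. The genes and lists were chosen with earlier results of these data known. A further gene of the cortex marker list is not reported here and was left out of the marker sum.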

Additional observations from a re-analysis of the deposited data

Results flagged for a closer look

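The KO minus WT difference of Npy differed between hypothalamus and the mean of the striatal regions. It was 0.83 on the log2 scale in hypothalamus, -0.01 in dorsal striatum, -0.41 in ventral striatum and 0.14 (SE 0.24) in motor cortex, which was not part of the test and had 1 WT library, and the hypothalamus difference exceeded the mean of the striatal ones by 1.04 (SE 0.25, adjusted p = 0.0207, edgeR; 0.167% of all genes passed this test of the difference). Npy was the 1 of the 7 genes to pass. Without the hypothalamus library KO 8, in which cortex markers stood at 277 CPM, the excess was 0.61. With the cortex marker level as a covariate it was 0.71 (adjusted p = 0.616, edgeR), a fit that is not separate from leaving KO 8 out. The quasi-likelihood test gave an adjusted p of 0.265 and DESeq2 one of 0.0521. The call was also lost without WT 1 (0.87, adjusted p = 0.216) or WT 2 (1.02, adjusted p = 0.0928) of hypothalamus, KO 8 (0.94, adjusted p = 0.0803) or WT 2 (0.89, adjusted p = 0.144) of dorsal striatum, and KO 8 of ventral striatum (0.96, adjusted p = 0.0692). Choroid plexus markers stood at 156 CPM in dorsal striatum KO 8, and striatum markers at 664 CPM, the lowest of the region, in ventral striatum KO 8, and their part in the result was not tested. Groups held at most 3 libraries, so single libraries were not tested for outlying values.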

How the results depend on the processing

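The calls of hypothalamus against the other regions were the steadiest: 7 of 7 genes under every alternative run, except 6 with DESeq2 against motor cortex, where Agrp was lost. The single KO against WT call in hypothalamus, Npy, became 0 with the quasi-likelihood test, DESeq2, size-alone scaling (0.73, adjusted p = 0.263), no filter (0.79, adjusted p = 0.0515), hypothalamus libraries alone (0.82, adjusted p = 0.105) and the cortex or thalamus (0.87, adjusted p = 0.161) marker covariate, both covariates added after seeing the data. It stayed with RLE factors (0.82, adjusted p = 0.0397), and leaving out each library gave 0 to 1 calls, with Npy from 0.41 to 1.15. The region difference of Npy likewise gave 0 calls with the quasi-likelihood test, DESeq2, size-alone scaling and either covariate, and 0 to 1 on leaving out libraries. The cause was not tested. Over all genes, KO against WT in hypothalamus gave 25 calls, but 4 with the quasi-likelihood test, 6 with DESeq2, 16 with size-alone scaling, 12 within the region, 4 and 9 with the cortex and thalamus covariates, 143 without KO 7 and 4 without KO 8. Leaving out libraries gave 1 to 3 calls for ventral against dorsal striatum, 1 to 2 for motor cortex against dorsal striatum and 2 to 4 for motor cortex against ventral striatum. The listed pathway genes went from 2 calls to 0 with the quasi-likelihood test.

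Small differences that had not passed changed sign. With size-alone scaling, KO minus WT in hypothalamus became -0.01 for Pomc and -0.03 for Pmch (-0.08 and -0.01 as mean log2 CPM in the permutation test), het minus WT became -0.03 for Pomc, KO minus het 0.02 for Pomc, and KO minus WT in dorsal striatum 0.26 for Npy. With the thalamus covariate, KO minus WT became -0.08 for Pomc, -0.06 for Hcrt and -0.16 for Pmch, and KO minus het 0.02 for Agrp and -0.22 for Hcrt. With the cortex covariate, KO minus WT became -0.00 for Pmch, and KO minus het 0.36 for Pomc and 0.05 for Gal. On leaving out each library, KO minus WT in hypothalamus ran from -0.47 to 0.45 for Pomc, -0.02 to 0.46 for Cartpt, -0.06 to 0.49 for Hcrt and -0.17 to 0.27 for Pmch. Het minus WT ran from -0.24 to 0.21 for Pomc, -0.05 to 0.35 for Hcrt, -0.05 to 0.28 for Pmch and -0.58 to 0.22 for Gal. KO minus het ran from -0.54 to 0.38 for Pomc, -0.22 to 0.32 for Hcrt, -0.29 to 0.15 for Pmch and -0.56 to 0.08 for Gal. KO minus WT ran from -0.24 to 0.29 for Npy in dorsal striatum, -0.35 to 0.77 for Cartpt in ventral striatum and -0.06 to 0.33 for Npy in motor cortex. Where 1 library was left in a group, it was assumed to vary like the other groups.

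Size-alone scaling moved the median of all genes from 0.045 to 0.406 for hypothalamus against dorsal striatum and from -0.003 to 0.276 for KO against WT in dorsal striatum, and by less than that in the other comparisons. Deviations of same-numbered libraries from their group means correlated at a mean r of 0.007 (34 pairs, -0.080 to 0.086), against -0.004 for other pairs. Each small group was centred on its own mean, so these values cannot tell whether a number stands for 1 animal. With the number as a replicate block, 7 genes passed for hypothalamus against each other region, 2, 1 and 2 among the other regions, and 1 for the region difference of Npy, so the block moved no count. Depth limits Agrp and Pomc most: a mean count of 6.25 for Agrp carries a counting error of 40.0% per library, and 28.9 for Pomc one of 18.6%, against 4.39% for Pmch.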
